A study of Mus musculus with 89 samples.

Results

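The hepatic enzymes of amino acid breakdown and of the methionine cycle were followed as 37 genes, in 7 groups by the amino acid they handle, through 13 comparisons of mouse liver or hepatocyte RNA. The genes were chosen by symbol: a row of a comparison table was a member where its gene symbol was on the list. All 37 symbols were found in every table, among 23306 gene symbols in the 3 tables keyed by RefSeq symbol and 42687 identifiers in the 10 tables keyed by Ensembl identifier. The list was not drawn from a cut on measured values, but it was chosen with earlier results of these data known. For that reason no test of the list as a set was made.

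The series measured poly(A) RNA of whole livers from mice that bore a tumour elsewhere or that received EVPs, the extracellular vesicles and particles that tumours shed, and of primary hepatocytes, in 89 samples of 23 groups. The questions put by the design are how a distant tumour, its EVPs, or tumour necrosis factor (TNF), an inflammatory cytokine, alters liver transcripts. C57BL/6 mice carried B16F10 or B16F1 melanoma for 3 weeks after cells in 100 µl had been placed under the skin. BALB/c mice carried K7M2 osteosarcoma in the tibia, or 4T1 or 67NR mammary carcinoma in the fat pad, for 4 weeks, after cells in 10 µl or 50 µl. Each of these groups was set against mice of the same strain given phosphate-buffered saline (PBS) in the same volume, by the same route and for the same time, with 5 samples on each side for B16F1 and K7M2 and 3 on each side for B16F10, 4T1 and 67NR. EVPs were given into a vein on alternate days for 4 weeks, at 10 µg in 100 µl, against intravenous PBS. B16F10-derived particles went to C57BL/6 mice and K7M2-derived particles to BALB/c mice. TE-EVPs were shed by tumour explants and CL-EVPs by cultured cell lines. Exomeres, Exo-S and Exo-L are B16F10 particle fractions, namely non-vesicular particles, small exosomes and large exosomes. There were 5 samples on each side for B16F10-TE-EVPs and for B16F10-CL-EVPs, 3 for K7M2-TE-EVPs, K7M2-CL-EVPs and the PBS group they share, and 4 for exomeres, Exo-S, Exo-L and the PBS group they share. Wild-type primary hepatocytes, whose strain the labels do not give, received TNF or PBS for 24 h, with 3 samples each. Sex and age are not given, and nothing says that samples of 1 group came from separate animals or cultures, so the p-values measure the spread among these samples, which may be partly technical.

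The liver clears most dietary and muscle-derived amino acids. Transaminases and deaminases take off the amino group for urea synthesis, and pathway-specific oxidases and hydrolases turn the carbon skeletons into glucose precursors, ketone bodies or intermediates of the citric acid cycle. The methionine cycle activates methionine to S-adenosylmethionine, the methyl donor of the cell, and disposes of the homocysteine that results, either by remethylation, for which betaine from choline can supply the methyl group, or by transsulfuration to cysteine. Many of these enzymes are far more abundant in hepatocytes than in other cells, and several are induced by glucagon and glucocorticoids.

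The 250 bases before the annotated start of 4 members are shown because Hpd is among the genes that fell in most comparisons and Hal, Bhmt and Hgd had the largest falls in hepatocytes with TNF. They are from RefSeq on the GRCm38.p6 build, read 5′ to 3′ on the gene's strand. Hpd is at chr5:123182724-123182973 on the minus strand, Hgd at chr16:37579903-37580152 on the plus strand, Hal at chr10:93488518-93488767 on the plus strand and Bhmt at chr13:93637759-93638008 on the minus strand. Capitals mark matches, on either strand, to TATAAA, the box known from core promoters, and to TTGCNNAA, a motif of the C/EBP factors.
Hpd: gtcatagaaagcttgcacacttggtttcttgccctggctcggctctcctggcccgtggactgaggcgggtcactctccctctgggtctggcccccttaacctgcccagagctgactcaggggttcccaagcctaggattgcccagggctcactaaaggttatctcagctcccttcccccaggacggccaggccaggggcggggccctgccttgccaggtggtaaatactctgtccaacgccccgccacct
Hgd: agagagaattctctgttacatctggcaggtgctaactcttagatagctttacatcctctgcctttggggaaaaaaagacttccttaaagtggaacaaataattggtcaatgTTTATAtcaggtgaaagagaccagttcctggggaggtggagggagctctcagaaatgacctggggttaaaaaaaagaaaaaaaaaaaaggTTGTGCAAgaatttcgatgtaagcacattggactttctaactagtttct
Hal: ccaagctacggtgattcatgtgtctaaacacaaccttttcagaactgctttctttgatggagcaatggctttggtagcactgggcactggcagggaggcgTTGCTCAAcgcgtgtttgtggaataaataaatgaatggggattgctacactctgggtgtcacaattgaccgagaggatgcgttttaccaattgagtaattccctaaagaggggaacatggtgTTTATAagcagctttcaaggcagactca
Bhmt: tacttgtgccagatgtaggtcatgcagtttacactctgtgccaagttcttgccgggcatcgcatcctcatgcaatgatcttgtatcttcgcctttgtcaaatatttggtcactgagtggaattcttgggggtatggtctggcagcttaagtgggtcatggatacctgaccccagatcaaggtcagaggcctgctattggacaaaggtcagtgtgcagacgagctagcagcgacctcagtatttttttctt
In the Hgd window TATAAA lay on the minus strand with its leftmost base at -139, and TTGCNNAA on the minus strand at -49. In the Hal window TATAAA lay on the minus strand at -28 and TTGCNNAA on the plus strand at -150. No match overlapped another. Another motif, CAAAGNCCA, known for HNF4 factors, was searched too, and the Hpd and Bhmt windows held none of the 3. Of 37 members 30 had a window in the RefSeq table, with 33 windows in all. TATAAA was in 6 of these windows, or 18.2%, against 12.4% of all 32851 windows of the same length, TTGCNNAA in 5, or 15.2%, against 9.56%, and CAAAGNCCA in 4, or 12.1%, against 1.7%. The genes with the last motif were Haao, Agxt2 and Ahcy. These are matches of letters only, and no binding was measured.

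Every value below, unless said otherwise, is from the authors' deposited tables. These hold for each gene a base mean (a mean normalised count), a log2 fold change against PBS with its standard error, written after ±, and an adjusted p. Base means were equal in the tables of groups that share a PBS group, so there they were not specific to a comparison. A gene is said to have risen or fallen where the adjusted p was under 0.05. The fold changes had been shrunken toward 0, to a different degree in each table, so their sizes understate the change and are not ranked between tables. Where values from several tables are given as a range, the range orders the printed values and not the sizes of the effects. Values per sample were not analysed here, so the spread within a group is seen only through the standard error, and whether the samples of the groups overlapped could not be seen. Whole livers mix cell types, so fewer hepatocytes and less RNA per hepatocyte cannot be told apart.

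Over all 13 of the authors' deposited tables the members gave 179 falls and 8 rises among 479 tested values. The 5 tumour comparisons held 105 falls and 6 rises of 183 tested values. The 7 EVP comparisons held 43 falls and 2 rises of 259, and TNF-treated hepatocytes held 31 falls of 37. Of all tested genes, from 0.67% with exomeres to 21% with 4T1 tumours fell. From 0.626% with K7M2-CL-EVPs to 22.4% with 4T1 tumours rose. These shares are given by comparison below, and they apply to the counts by pathway too. Some EVP comparisons share a PBS group, so pooled EVP counts are not of independent tests. The share of all tested genes that fell in several tables was not computed, so counts over tables have no such share beside them. Of the 37 genes, 34 fell in at least 1 tumour comparison and 16 in at least 4. The 8 that fell with all 5 tumours were Hpd, Haao, Gpt, Gls2, Prodh, Aldh4a1, Sardh and Bckdha. The 3 that fell with none were Sdsl, Glud1 and Mat1a.

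**Figure D1:**
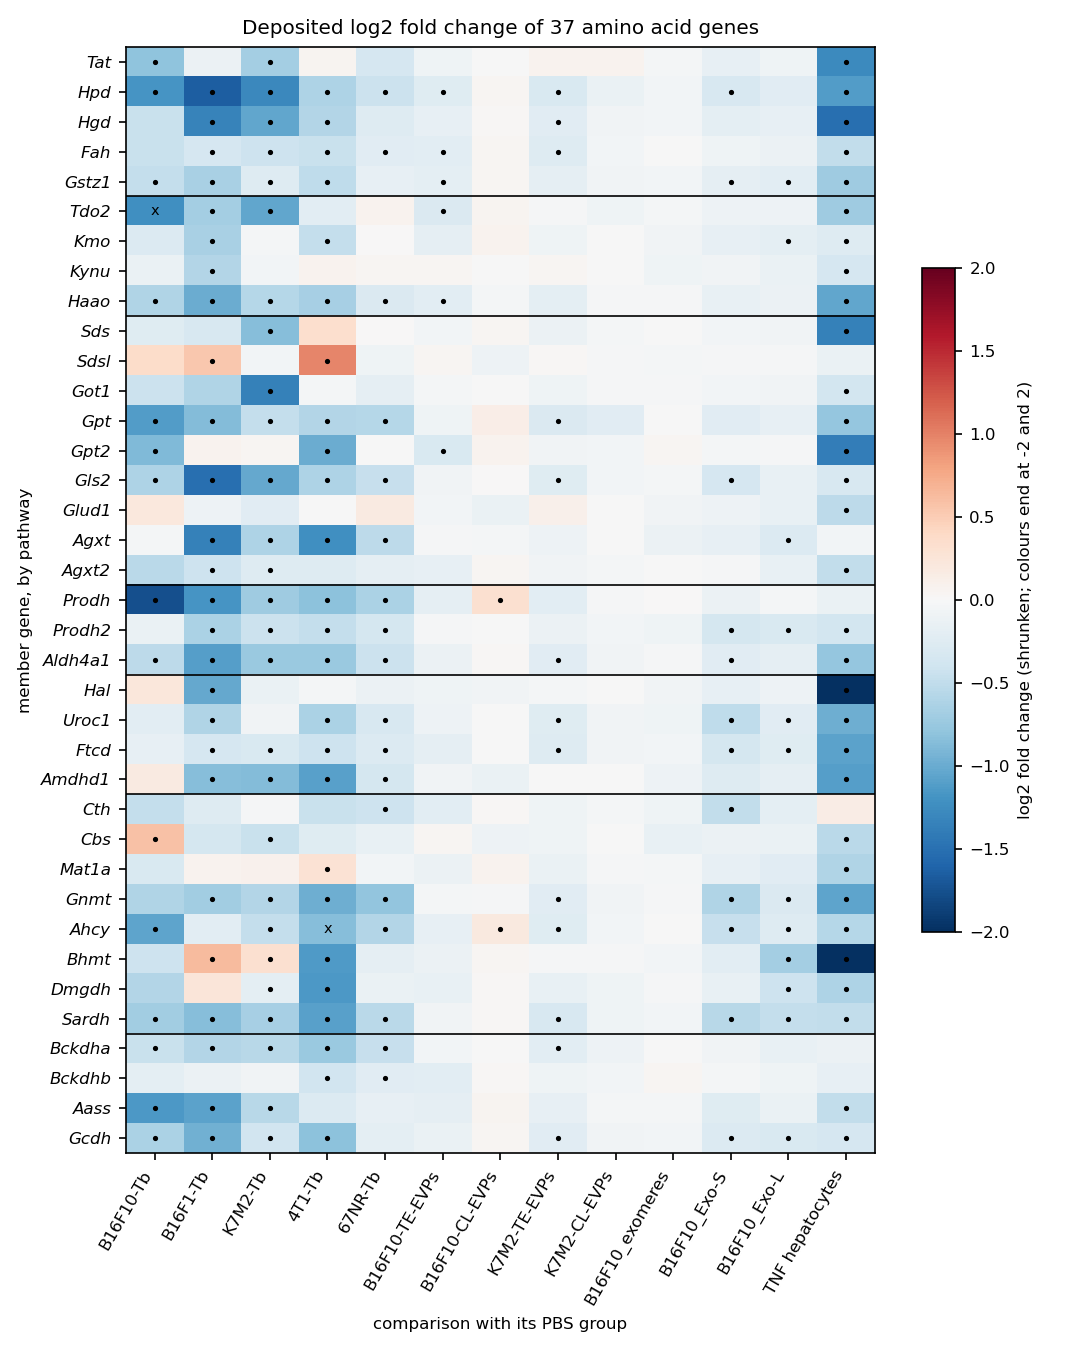
Log2 fold change of each of the 37 genes (rows, grouped by pathway) in each of the 13 comparisons (columns), as deposited; a dot marks an adjusted p under 0.05 and a cross a value with no adjusted p. Blue cells, lower than PBS, fill most of the 5 tumour columns and the TNF column, and the K7M2-CL-EVPs and B16F10_exomeres columns hold no dot.

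By comparison, the share of members that fell was above the share of all tested genes that fell in each of the authors' 5 deposited tumour tables. With B16F10 tumours 14 of 36 tested members fell, where 5.25% of all tested genes fell, and 1 rose, where 6.48% rose; the median member was at -0.45 and the median of all tested genes at -0.02. With B16F1 tumours 24 of 37 fell, where 17.1% of all genes fell, and 2 rose, where 17.2% rose, and the median member was at -0.61. With K7M2 tumours 26 fell, where 12.9% of all genes fell, and 1 rose, where 15.1% rose, with a median member of -0.45. With 4T1 tumours 23 of 36 fell, where 21% of all genes fell, and 2 rose, where 22.4% rose, with a median of -0.50. With 67NR tumours 18 of 37 fell, where 9.42% of all genes fell, and none rose, where 9.14% rose; there 1 member rose at an unadjusted p under 0.05, and the median was -0.23. The median of all tested genes was -0.01 with K7M2, 0.01 with 4T1, and 0.00 with B16F1 and with 67NR.

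The EVP tables held from 0 to 13 falls of members, by the authors' deposited values. With B16F10-TE-EVPs 6 members fell, where 3.37% of all tested genes fell, and 0 rose, also at an unadjusted p under 0.05, where 5.23% of all genes rose. With K7M2-TE-EVPs 13 members fell, where 2.67% of all genes fell, and 0 rose by either p, where 1.37% of all genes rose. With B16F10-CL-EVPs 0 fell, where 1.44% of all genes fell, and 2 rose, where 2.34% rose; at an unadjusted p under 0.05 there were 4 falls and 3 rises. With K7M2-CL-EVPs 0 members fell and 0 rose, where 0.854% and 0.626% of all genes did, with 6 falls and 1 rise at an unadjusted p under 0.05. Both K7M2 EVP groups share 1 PBS group. The median member was at -0.11 with B16F10-TE-EVPs, 0.02 with B16F10-CL-EVPs, -0.14 with K7M2-TE-EVPs and -0.05 with K7M2-CL-EVPs. At an adjusted p under 0.01 there were 0 calls with B16F10-TE-EVPs, 0 with B16F10-CL-EVPs and 3 with K7M2-TE-EVPs.

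Among the 3 particle fractions, which share 1 PBS group, 12 members fell with Exo-S, where 2.92% of all tested genes fell, and 12 with Exo-L, where 4.1% fell, and in both tables all 37 fold changes were below 0. None rose with either by adjusted or unadjusted p, where 6.84% and 8.65% of all genes rose. With exomeres 0 members fell and 0 rose, where 0.67% and 4.26% of all genes did; 8 fell and 0 rose at an unadjusted p under 0.05. The median member was at -0.04 with exomeres, -0.17 with Exo-S and -0.16 with Exo-L. In hepatocytes with TNF 31 members fell, where 13.2% of all tested genes fell, and 0 rose, where 16.4% rose, with 1 rise at an unadjusted p under 0.05; the median member was at -0.58. The median of all tested genes was -0.01 with Exo-L and 0.00 in the other EVP tables and with TNF.

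**Figure D2:**
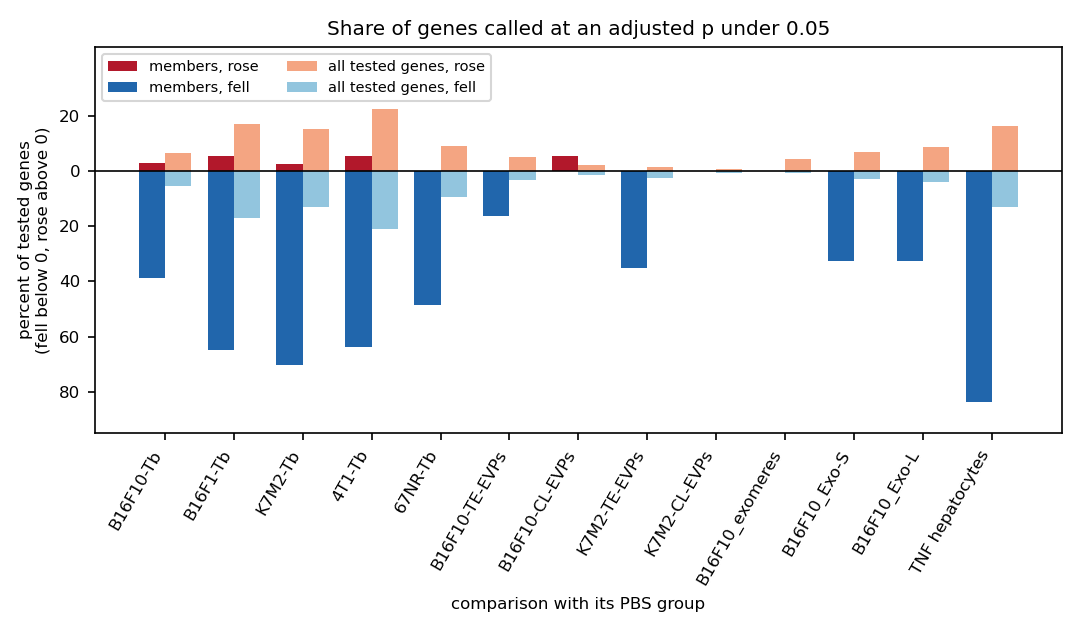
Percent of tested genes that rose (above 0) or fell (below 0) at an adjusted p under 0.05 in each comparison, for the members (dark bars) and for all tested genes (light bars). The dark blue bars are longest for TNF hepatocytes, where 31 of 37 members fell, and there is no dark bar for K7M2-CL-EVPs or B16F10_exomeres, where 0 members were called.

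The sequential enzymes of tyrosine breakdown gave 18 falls in 25 tumour tests, 9 in 35 EVP tests and 5 in 5 with TNF, and no rise. Tat, tyrosine aminotransferase, catalyses the rate-limiting first step. It fell by the authors' deposited values with B16F10 (-0.81 ± 0.20) and K7M2 (-0.68 ± 0.31) tumours and with TNF (-1.27 ± 0.13), and was at -0.12 ± 0.31 with B16F1, 0.05 ± 0.35 with 4T1 and -0.33 ± 0.19 with 67NR. The 7 EVP values of Tat lay between -0.16 and 0.07, and none was called.

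Hpd, 4-hydroxyphenylpyruvate dioxygenase, makes homogentisate from the product of Tat. It fell in 9 of the 13 authors' deposited tables, a number matched among the members only by Sardh. In tumour-bearing mice Hpd was at -1.18 ± 0.21 with B16F10 (adjusted p = 2.21e-06), -1.65 ± 0.19 with B16F1 (adjusted p = 8.61e-19), -1.29 ± 0.13 with K7M2 (adjusted p = 3.96e-21), -0.61 ± 0.13 with 4T1 and -0.43 ± 0.09 with 67NR, by the authors' DESeq2 fit. It also fell with B16F10-TE-EVPs (-0.25 ± 0.10), K7M2-TE-EVPs (-0.31 ± 0.10) and Exo-S (-0.31 ± 0.19), and with TNF (-1.12 ± 0.23). It was not called with B16F10-CL-EVPs (0.04 ± 0.06), K7M2-CL-EVPs (-0.13 ± 0.10), exomeres (-0.05 ± 0.08) or Exo-L (-0.22 ± 0.15). So Hpd fell with every tumour and with both TE-EVP preparations, and was called with neither CL-EVP preparation. These calls do not show that TE-EVPs and CL-EVPs differ. For B16F10 the test of the difference between effects, described below, did not pass for Hpd (adjusted p = 0.0575). For K7M2 that difference was not tested.

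The next 3 enzymes followed parts of that pattern. Hgd, homogentisate dioxygenase, which opens the aromatic ring, fell with B16F1 (-1.33 ± 0.24), K7M2 (-1.04 ± 0.12) and 4T1 (-0.58 ± 0.13) tumours and with K7M2-TE-EVPs (-0.22 ± 0.09) in the authors' deposited tables. Its value was -0.44 ± 0.20 with B16F10 and -0.26 ± 0.10 with 67NR, neither called, and -1.51 ± 0.17 with TNF. Gstz1, maleylacetoacetate isomerase, fell with B16F10 (-0.48 ± 0.16), B16F1 (-0.64 ± 0.12), K7M2 (-0.26 ± 0.07) and 4T1 (-0.50 ± 0.10) tumours, with B16F10-TE-EVPs (-0.20 ± 0.09), Exo-S (-0.18 ± 0.09) and Exo-L (-0.21 ± 0.08), and with TNF (-0.72 ± 0.07). Fah, fumarylacetoacetate hydrolase, the last enzyme and the one lost in hereditary tyrosinaemia type I, had deposited values between -0.45 ± 0.11 with 4T1 and -0.23 ± 0.06 with 67NR in the 4 tumour tables where it fell, -0.21 ± 0.09 with B16F10-TE-EVPs, -0.25 ± 0.08 with K7M2-TE-EVPs and -0.50 ± 0.07 with TNF. With B16F10 tumours Fah was at -0.45 ± 0.18 and was not called.

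Tryptophan breakdown through kynurenine gave 10 falls in 19 tumour tests, 3 in 28 EVP tests and 4 in 4 with TNF. Tdo2, tryptophan dioxygenase, the entry enzyme of the hepatic route, fell with B16F1 (-0.68 ± 0.25) and K7M2 (-1.03 ± 0.11) tumours, with B16F10-TE-EVPs (-0.29 ± 0.16) and with TNF (-0.71 ± 0.10) in the authors' deposited tables. With B16F10 tumours Tdo2 was at -1.23 ± 0.21, but that deposited table gives it no p-value, so it was not counted. With 4T1 it was at -0.21 ± 0.15 and with 67NR at 0.07 ± 0.15. Kmo, kynurenine monooxygenase, fell with B16F1 (-0.64 ± 0.11), 4T1 (-0.48 ± 0.11), Exo-L (-0.20 ± 0.09) and TNF (-0.26 ± 0.10). Kynu, kynureninase, fell with B16F1 (-0.58 ± 0.21) and TNF (-0.33 ± 0.10), and its other 11 deposited values lay between -0.14 and 0.07. Haao, which makes the precursor of quinolinate and NAD from 3-hydroxyanthranilate, was the member of this group that fell most often: with all 5 tumours, from -0.99 ± 0.18 with B16F1 to -0.29 ± 0.10 with 67NR, with B16F10-TE-EVPs (-0.21 ± 0.08) and with TNF (-1.03 ± 0.23).

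The 9 enzymes of serine, alanine, glutamate and glyoxylate handling gave 20 falls and 2 rises in 45 tumour tests, 5 falls in 63 EVP tests and 7 falls in 9 with TNF. Their members did not move together. Gpt, the cytosolic alanine aminotransferase that is assayed in blood as ALT, fell with all 5 tumours in the authors' deposited tables, at -1.11 ± 0.19 with B16F10, -0.87 ± 0.24 with B16F1, -0.47 ± 0.14 with K7M2, -0.58 ± 0.14 with 4T1 and -0.57 ± 0.12 with 67NR. It fell as well with K7M2-TE-EVPs (-0.29 ± 0.12) and TNF (-0.77 ± 0.09). Gpt2, the mitochondrial enzyme, fell with B16F10 (-0.88 ± 0.18, adjusted p = 5.49e-05) and 4T1 (adjusted p = 1.66e-19) tumours, B16F10-TE-EVPs (-0.31 ± 0.20) and TNF (-1.39 ± 0.07) by the authors' DESeq2 fit, and was near 0 with B16F1 (0.07 ± 0.16), K7M2 (0.04 ± 0.24) and 67NR (-0.01 ± 0.19).

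Gls2, the liver-type glutaminase that releases ammonia from glutamine in periportal hepatocytes, fell with all 5 tumours, from -1.50 ± 0.26 with B16F1 (adjusted p = 4.04e-09) to -0.45 ± 0.10 with 67NR, in the authors' DESeq2 tables. Its deposited values were -0.24 ± 0.09 with K7M2-TE-EVPs, -0.33 ± 0.24 with Exo-S and -0.32 ± 0.08 with TNF, all called. Glud1, glutamate dehydrogenase, which frees ammonia from glutamate in mitochondria, was called in no liver table, where it lay between -0.23 ± 0.13 with K7M2 and 0.21 ± 0.17 with B16F10 tumours, and fell with TNF (-0.52 ± 0.08). Got1, the cytosolic aspartate aminotransferase, fell with K7M2 tumours (-1.35 ± 0.20, adjusted p = 7.16e-11) and with TNF (-0.36 ± 0.06); with B16F1 its deposited value of -0.60 ± 0.46 was not called.

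Agxt, the peroxisomal aminotransferase that removes glyoxylate, fell with B16F1 (-1.36 ± 0.25), K7M2 (-0.62 ± 0.19), 4T1 (-1.23 ± 0.18) and 67NR (-0.52 ± 0.09) tumours and with Exo-L (-0.28 ± 0.18) in the authors' deposited tables. It was not called with B16F10 tumours (-0.04 ± 0.24) or with TNF (-0.06 ± 0.09). Agxt2, its mitochondrial counterpart, fell with B16F1 (-0.42 ± 0.16), K7M2 (-0.25 ± 0.12) and TNF (-0.49 ± 0.13). Sds, serine dehydratase, which makes pyruvate from serine, fell with K7M2 (-0.85 ± 0.27) and TNF (-1.35 ± 0.23), with 0.34 ± 0.18 for 4T1. Sdsl, a serine dehydratase-like gene, rose with B16F1 (0.55 ± 0.23) and 4T1 (0.97 ± 0.16, adjusted p = 1.03e-08) by the authors' DESeq2 fit and fell in none of the 13 tables. Its base mean was 142 to 381 over the 13 tables.

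All 3 enzymes of proline oxidation were lower in nearly every tumour test, with 14 falls in 15. The EVP tables held 4 falls and 1 rise in 21 tests, and TNF 2 falls in 3. Prodh, proline dehydrogenase, which starts mitochondrial proline oxidation, fell to -1.75 ± 0.20 with B16F10 tumours (adjusted p = 1.27e-14 by the authors' DESeq2 fit), the lowest value of any member in that deposited table. It was at -1.17 ± 0.42 with B16F1, -0.72 ± 0.24 with K7M2, -0.83 ± 0.18 with 4T1 and -0.64 ± 0.15 with 67NR, all called. Prodh rose with B16F10-CL-EVPs (0.32 ± 0.15, adjusted p = 0.0173) in the authors' DESeq2 table and was not called with TNF (-0.13 ± 0.08). Aldh4a1, which oxidises the next intermediate to glutamate, fell with all 5 tumours, from -1.10 ± 0.18 with B16F1 to -0.42 ± 0.11 with 67NR, with K7M2-TE-EVPs (-0.23 ± 0.09), Exo-S (-0.23 ± 0.16) and TNF (-0.78 ± 0.09). Prodh2, which oxidises hydroxyproline, fell with every tumour except B16F10 (-0.13 ± 0.17), with deposited values from -0.63 ± 0.13 to -0.35 ± 0.10, and with Exo-S (-0.36 ± 0.13), Exo-L (-0.31 ± 0.11) and TNF (-0.37 ± 0.16).

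Histidine breakdown gave 12 falls in 20 tumour tests, 6 in 28 EVP tests and 4 in 4 with TNF. Hal, histidine ammonia-lyase, the first step, had the lowest value of any member in hepatocytes, -2.81 ± 0.18 with TNF (adjusted p = 4.28e-57 by the authors' DESeq2 fit). In the livers Hal fell only with B16F1 tumours (-1.02 ± 0.27), and its other 11 liver values, in the deposited tables, lay between -0.16 ± 0.20 with Exo-S and 0.23 ± 0.24 with B16F10. The later 3 enzymes fell in 5 to 8 of the authors' 13 deposited tables. Uroc1, urocanate hydratase, fell with B16F1 (-0.61 ± 0.16), 4T1 (-0.64 ± 0.12) and 67NR (-0.32 ± 0.08) tumours, with K7M2-TE-EVPs (-0.25 ± 0.10), Exo-S (-0.51 ± 0.13), Exo-L (-0.22 ± 0.11) and TNF (-0.98 ± 0.09). Amdhd1, the imidazolonepropionase, is the coding gene next to Hal on chromosome 10. It fell with every tumour but B16F10 (0.18 ± 0.22), to -1.08 ± 0.19 with 4T1 in the deposited tables, and with TNF (-1.10 ± 0.15). Ftcd, which passes the formimino group to folate, fell with the same 4 tumours, from -0.41 ± 0.13 to -0.27 ± 0.07, with K7M2-TE-EVPs (-0.26 ± 0.09), Exo-S (-0.35 ± 0.13), Exo-L (-0.24 ± 0.10) and TNF (-1.07 ± 0.08).

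**Figure D3:**
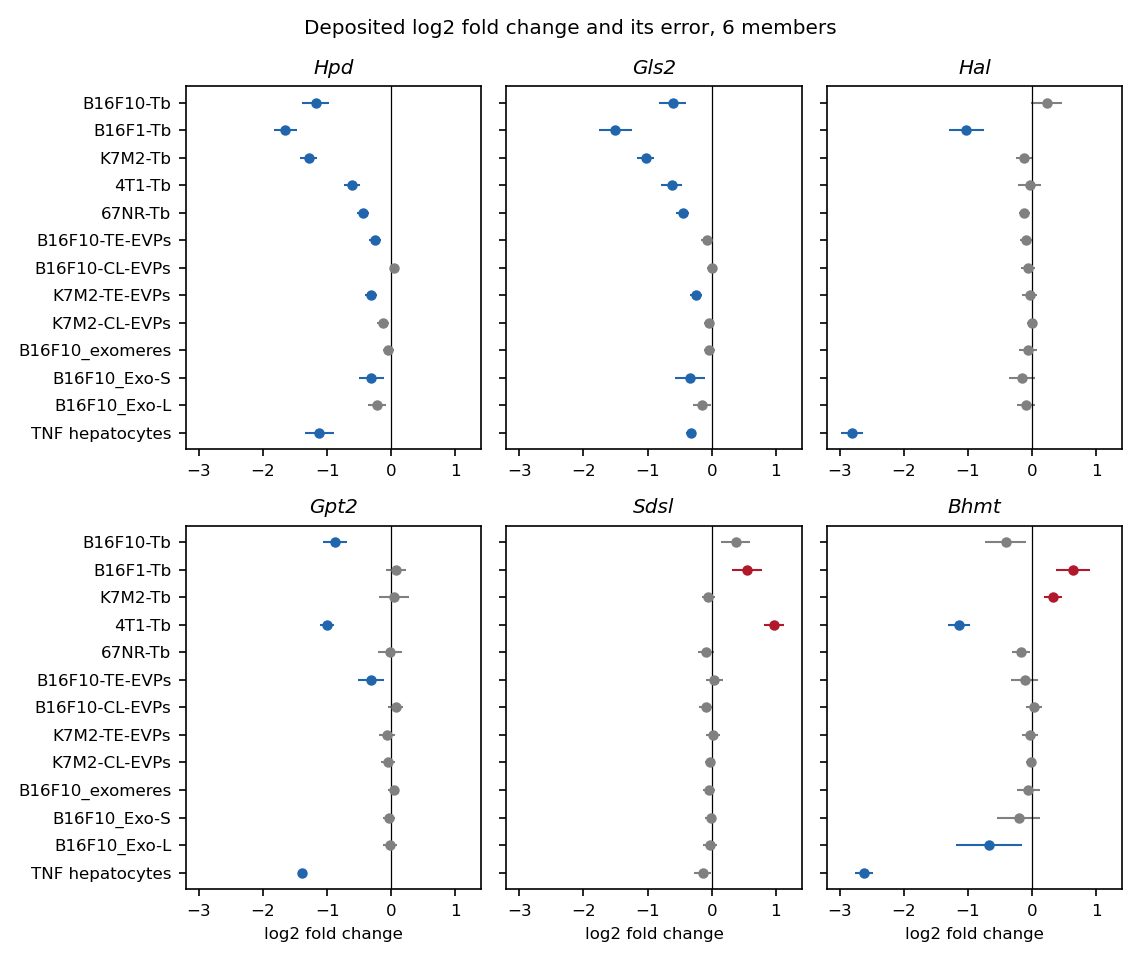
Deposited log2 fold change (points) and its standard error (lines) of 6 members in the 13 comparisons; blue points fell, red points rose and grey points had an adjusted p of 0.05 or more. Hpd and Gls2 are blue with all 5 tumours, Hal only with B16F1 and TNF, and Bhmt is red with B16F1 and K7M2 and blue with 4T1.

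The methionine cycle, with transsulfuration and choline oxidation, gave 17 falls and 4 rises in 39 tumour tests, 12 falls and 1 rise in 56 EVP tests, and 7 falls in 8 with TNF. It held 5 of the 8 rises seen over all members. Of all tested genes 6.48% to 22.4% rose in the tumour tables and 0.626% to 8.65% in the EVP tables. The shares of rises in this pathway lay within those ranges. Mat1a, the liver enzyme that makes S-adenosylmethionine, rose with 4T1 tumours (0.29 ± 0.12) and fell with TNF (-0.61 ± 0.10); it was called in none of the authors' 11 other deposited tables, and was at -0.31 ± 0.22 with B16F10. Gnmt, glycine N-methyltransferase, which uses up surplus S-adenosylmethionine, fell with B16F1 (-0.70 ± 0.22), K7M2 (-0.59 ± 0.16), 4T1 (-0.98 ± 0.17) and 67NR (-0.79 ± 0.12) tumours, with K7M2-TE-EVPs (-0.23 ± 0.12), Exo-S (-0.60 ± 0.23) and Exo-L (-0.29 ± 0.21), and with TNF (-1.06 ± 0.13). With 67NR tumours Gnmt was the lowest member of the authors' deposited table, and so it was with Exo-S.

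Ahcy, which splits S-adenosylhomocysteine into homocysteine and adenosine, fell in the deposited tables with B16F10 (-1.05 ± 0.20), K7M2 (-0.48 ± 0.23) and 67NR (-0.59 ± 0.10) tumours, with K7M2-TE-EVPs (-0.25 ± 0.13), Exo-S (-0.46 ± 0.20), Exo-L (-0.25 ± 0.16) and TNF (-0.58 ± 0.07), and rose with B16F10-CL-EVPs (0.20 ± 0.09). With 4T1 tumours it was at -0.85 ± 0.11 with no p-value. Its values are uncertain. Near-identical copies of this gene are known in the mouse genome, and their part in its values was not tested. As parts of 1000000 of the summed base means it was at 1741 to 2143 in the 3 RefSeq-keyed tables and at 264 to 837 in the 9 Ensembl-keyed liver tables. No other member had ranges that stood apart between the table formats.

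Both routes of homocysteine removal were covered. Bhmt, which remethylates homocysteine with betaine, changed in opposite directions among the tumours: it rose with B16F1 (0.63 ± 0.26) and K7M2 (0.32 ± 0.15) and fell with 4T1 (-1.14 ± 0.18, adjusted p = 1.17e-09 by the authors' DESeq2 fit), with deposited values of -0.41 ± 0.31 for B16F10 and -0.18 ± 0.14 for 67NR that were not called. Bhmt fell with Exo-L (-0.68 ± 0.52), with a wide error, and with TNF (-2.62 ± 0.14). Cbs, the entry of transsulfuration, rose with B16F10 tumours (0.58 ± 0.19) and fell with K7M2 tumours (-0.45 ± 0.16) and TNF (-0.54 ± 0.07). Cth, which completes transsulfuration to cysteine, fell with 67NR (-0.41 ± 0.13) and Exo-S (-0.50 ± 0.44) in the deposited tables and was at 0.15 ± 0.08 with TNF, not called.

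Dimethylglycine, which Bhmt leaves from betaine, is demethylated by Dmgdh and then Sardh. Dmgdh, dimethylglycine dehydrogenase, fell with K7M2 (-0.19 ± 0.09) and 4T1 (-1.15 ± 0.14) tumours, with Exo-L (-0.41 ± 0.16) and with TNF (-0.62 ± 0.09), and was at 0.24 ± 0.15 with B16F1 in the authors' deposited tables. Sardh, sarcosine dehydrogenase, fell in 9 tables: with B16F10 (-0.69 ± 0.22), B16F1 (-0.86 ± 0.14), K7M2 (-0.66 ± 0.12), 4T1 (-1.09 ± 0.16) and 67NR (-0.54 ± 0.10) tumours, with K7M2-TE-EVPs (-0.32 ± 0.09), Exo-S (-0.56 ± 0.19) and Exo-L (-0.47 ± 0.20), and with TNF (-0.49 ± 0.07). Its deposited values were -0.06 ± 0.10 with B16F10-TE-EVPs, 0.02 ± 0.06 with B16F10-CL-EVPs, -0.09 ± 0.08 with K7M2-CL-EVPs and -0.05 ± 0.09 with exomeres, none called.

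Branched chain and lysine breakdown gave 14 falls in 20 tumour tests, 4 in 28 EVP tests and 2 in 4 with TNF. Bckdha and Bckdhb encode the subunits of the dehydrogenase that commits branched chain keto acids to oxidation. Bckdha fell with all 5 tumours, from -0.75 ± 0.15 with 4T1 to -0.45 ± 0.15 with B16F10, and with K7M2-TE-EVPs (-0.21 ± 0.08) in the authors' deposited tables. Bckdhb fell with 4T1 (-0.38 ± 0.08) and 67NR (-0.22 ± 0.08). Neither subunit was called with TNF, at -0.12 ± 0.10 and -0.16 ± 0.09. Aass, the first enzyme of lysine breakdown, fell with B16F10 (-1.15 ± 0.18), B16F1 (-1.07 ± 0.31) and K7M2 (-0.55 ± 0.21) tumours and with TNF (-0.50 ± 0.10). Gcdh, glutaryl-CoA dehydrogenase, further down the same route, fell with B16F10 (-0.64 ± 0.18), B16F1 (-0.96 ± 0.12), K7M2 (-0.38 ± 0.09) and 4T1 (-0.81 ± 0.13), with K7M2-TE-EVPs (-0.22 ± 0.07), Exo-S (-0.27 ± 0.08), Exo-L (-0.31 ± 0.08) and TNF (-0.33 ± 0.07).

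Whether an effect differed between related conditions was tested for 3 chosen pairs of the same strain and route that have separate PBS groups; other such pairs, of B16F10 EVPs with the particle fractions, were not tested. For this the unshrunken effect and error of each gene were recovered from the deposited values, and the ratio of their difference to its error was tested two-sided against the normal distribution, with Benjamini-Hochberg adjustment over all genes with a value in both tables. The mice also differ by set, so the tumour line or the EVP source and the set of mice cannot be told apart.

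Between B16F10 and B16F1 tumours, a more and a less metastatic melanoma line of 1 lineage, the effect was higher with B16F10 for 4 of 35 members with a value, where 3.56% of 12108 genes were higher, and lower for 3, where 2.84% of genes were lower. Agxt was at -0.05 with B16F10 and -1.44 with B16F1, a difference of 1.39 ± 0.37 (standard error; adjusted p = 0.00721). Hal differed by 1.41 ± 0.39 and its neighbour Amdhd1 by 1.17 ± 0.34. Cbs, at 0.64 with B16F10 and -0.47 with B16F1, differed by 1.11 ± 0.30. Gpt2 went the other way, at -0.96 with B16F10 and 0.10 with B16F1, a difference of -1.07 ± 0.27 (adjusted p = 0.00458), and so did Dmgdh (-0.98 ± 0.30) and Ahcy (-0.90 ± 0.29). All 7 differences compare a RefSeq-keyed with an Ensembl-keyed table, and the part of the table format in them was not tested. For Hpd and Sardh, which fell with both lines, the differences were 0.35 ± 0.30 and 0.10 ± 0.28, with 95% intervals of -0.25 to 0.94 and -0.45 to 0.65. With the recovered errors multiplied by 5/4, 0 of the 7 differences passed.

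Between 4T1 and 67NR tumours, a metastatic and a rarely metastatic mammary line, the effect was lower with 4T1 for 9 of 36 members, where 15.3% of 12303 genes were lower, and higher for 2, where 13.1% were higher. Dmgdh was at -1.19 with 4T1 and -0.15 with 67NR, a difference of -1.04 ± 0.17 (adjusted p = 1.28e-08). Bhmt, whose gene lies beside it on chromosome 13 with Bhmt2 between them, differed by -0.98 ± 0.25 (adjusted p = 0.000784). Gcdh differed by -0.63 ± 0.16, Amdhd1 by -0.77 ± 0.22 and Gpt2, at -1.01 with 4T1 and -0.03 with 67NR, by -0.99 ± 0.36, and Sdsl was higher with 4T1 by 1.11 ± 0.22 (adjusted p = 6.84e-06). For Hpd the difference was -0.16 ± 0.16, with a 95% interval of -0.48 to 0.16. Of the 11 differences 7 passed with the recovered errors multiplied by 5/4, and 7 passed at an adjusted p under 0.01.

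Between B16F10-TE-EVPs and B16F10-CL-EVPs 29 members had a recovered value in both tables. The effect was lower with TE-EVPs for 3, where 1.83% of 9682 genes were lower, and higher for 0, where 2.06% were higher. Prodh was at -0.36 with TE-EVPs and 0.41 with CL-EVPs, a difference of -0.78 ± 0.22 (adjusted p = 0.0256). Gpt2, at -0.46 and 0.41, differed by -0.87 ± 0.26 (adjusted p = 0.0317), and Ahcy by -0.52 ± 0.16 (adjusted p = 0.0374). Hpd differed by -0.38 ± 0.13, which did not pass (adjusted p = 0.0575). With the recovered errors multiplied by 5/4, 0 of the 3 differences passed.

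**Figure D4:**
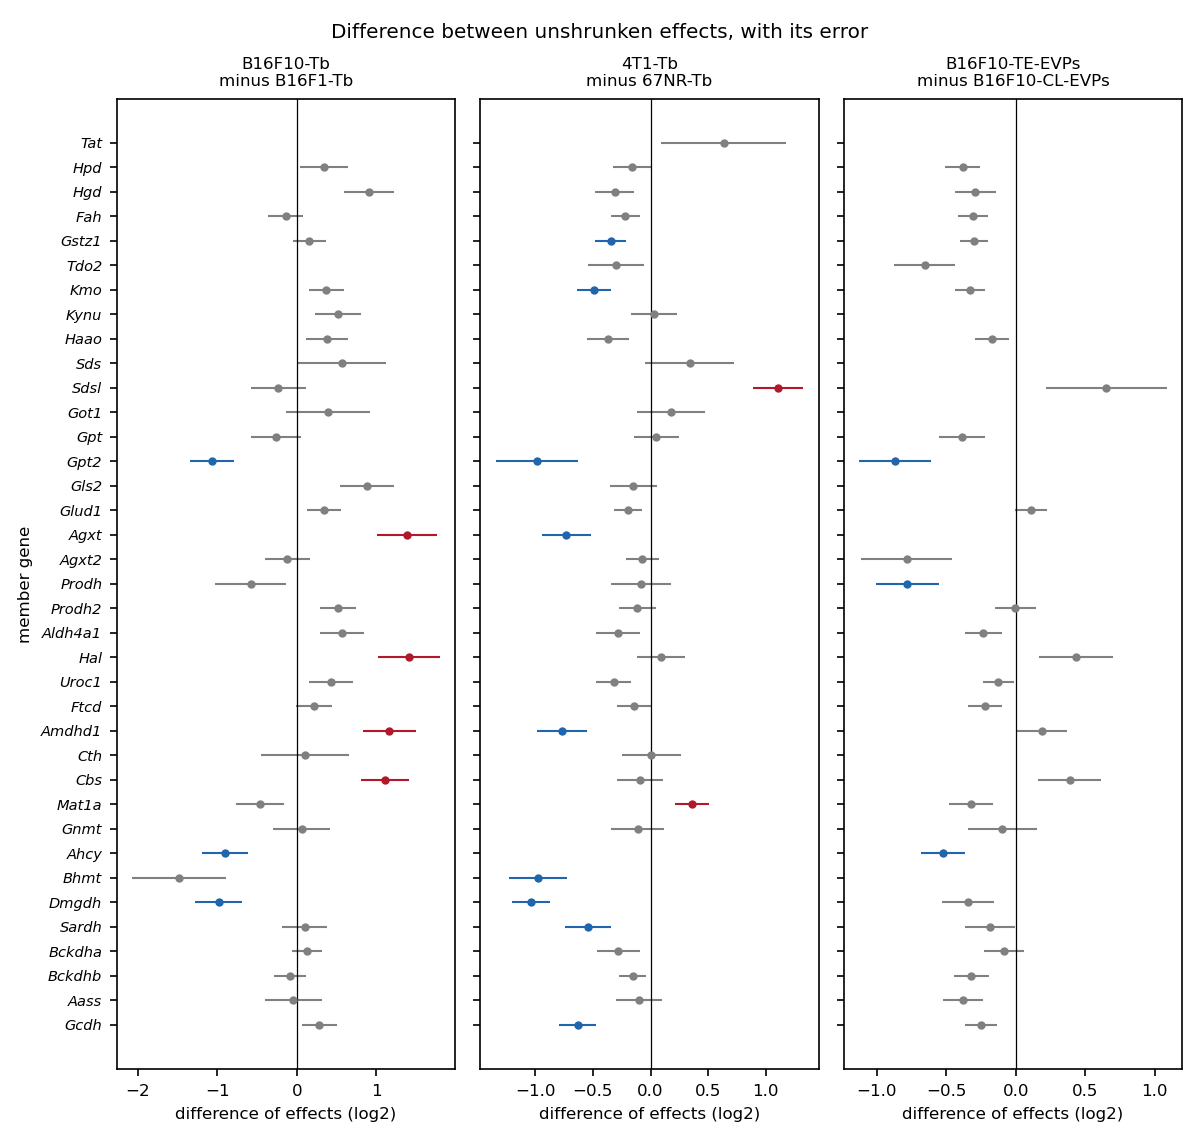
Difference between the unshrunken log2 effects of each member in 3 pairs of comparisons (points) with its standard error (lines); red and blue points had an adjusted p under 0.05, and members without a recovered value have no point. Agxt, Hal, Amdhd1 and Cbs are red in the B16F10 and B16F1 panel, and Gpt2 is blue in all 3 panels.

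The members were at lower levels in the hepatocyte table than in the livers. Counted as parts of 1000000 of the summed base means of the authors' deposited table, 36 of 37 members were lower in the hepatocyte table than in every one of the 12 liver tables, 20 of them at least 10 times lower than the lowest liver table. Bhmt was at 7.71 such parts in hepatocytes and at 968 to 2886 in livers. Hgd was at 4.43 against 467 to 769, Hpd at 48.4 against 1705 to 3090 and Mat1a at 41.9 against 2971 to 5565. Glud1, at 674 against 867 to 1622, was close to the liver range, and Gpt2, at 304, lay within its range of 146 to 560. The tables were normalised separately, so these levels carry no test, and they are not corrected for transcript length, so genes are not ranked by them.

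**Figure D5:**
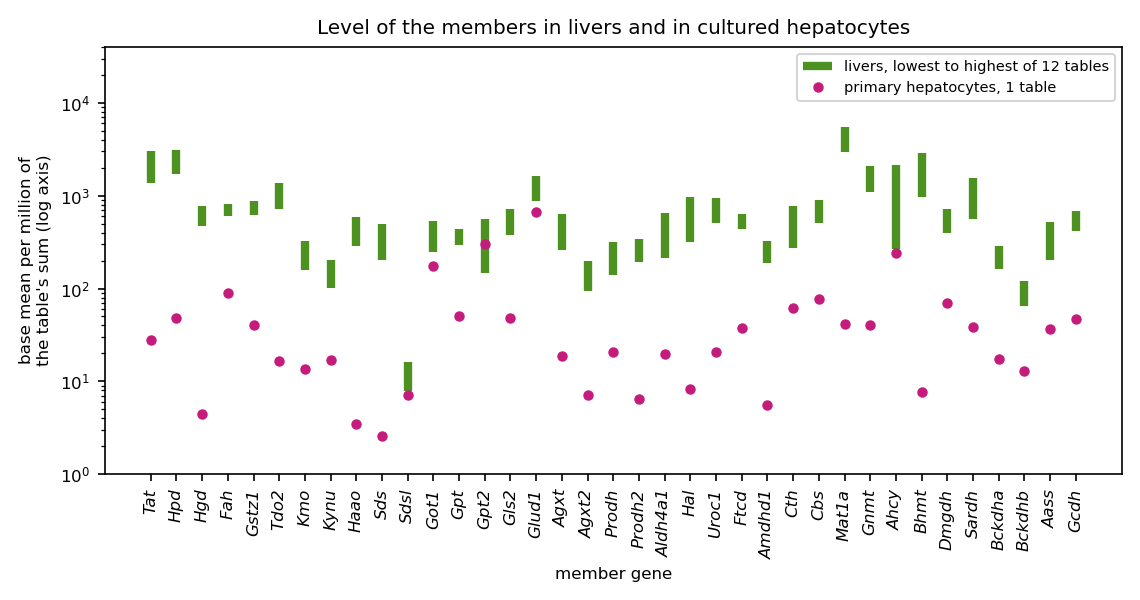
Base mean of each member per 1000000 of its table's summed base means, on a log axis, in the 12 liver tables (green bars, lowest to highest) and in the hepatocyte table (points). All points but that of Gpt2 lie below their green bar, Bhmt at 7.71 against 968 to 2886.

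The 5 largest TNF falls were in Hal, Bhmt, Hgd, Gpt2 and Sds, given above. The 6 members not called with TNF were Sdsl, Agxt, Prodh, Cth, Bckdha and Bckdhb. In the same deposited table all 8 hepatocyte markers (albumin and other abundant secreted or lipid-binding proteins) fell, with a median of -0.72, and none was at 0. Markers of other cells were present too. The cholangiocyte (bile duct cell) list summed to a base mean of 13480, against 113 to 231 in the separately normalised liver tables. Of 7 Kupffer cell markers 2 rose and 4 fell, of 5 endothelial markers 2 rose and 2 fell, and of 5 stellate markers 1 rose and 3 fell. The part of a general loss of hepatocyte transcripts, or of other cells, in the members' falls and levels was not tested.

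In the livers the 8 hepatocyte markers were at no 0, with summed base means of 2541930 to 5452980. They moved in both directions with B16F1 and with 4T1 tumours (4 rose and 3 fell with each) and with 67NR tumours (1 rose and 1 fell). They fell mostly with Exo-L (6 of 8) and K7M2 tumours (4 fell and 1 rose), while 3 rose and 0 fell with B16F10 tumours. With Exo-S and with exomeres 3 fell, with B16F10-TE-EVPs 2 and with B16F10-CL-EVPs 1, and 0 rose with any of these. With either K7M2 EVP group 0 were called. Kupffer cell markers rose in all 7 of 7 with B16F1, K7M2, 4T1 and 67NR tumours, B16F10-TE-EVPs and Exo-L. They rose in 6 with B16F10-CL-EVPs and exomeres, in 5 with Exo-S and in 1 of 5 tested with B16F10 tumours. With either K7M2 EVP group 0 rose. Their summed base mean was 4397 to 13985, with none at 0. Neutrophil markers rose in 7 of 7 with B16F1 and K7M2 tumours and in 6 of 6 tested with 4T1. They rose in 2 of 3 tested with B16F10 tumours, 1 of 1 tested with 67NR and 3 of 5 tested with Exo-L. Erythroid precursor markers rose in 7 of 7 with B16F1 and K7M2 and 1 of 5 tested with 4T1. Sinusoidal endothelial markers rose in 5 of 5 with B16F1, 4 with 67NR, and 3 with 4T1 and with B16F10-TE-EVPs, and 1 fell with K7M2 tumours. Stellate cell markers rose in 4 of 5 with 4T1 and with B16F10-CL-EVPs, 3 with B16F10-TE-EVPs, 2 with each of the 3 particle fractions and 1 with B16F1 and with 67NR, where 1 also fell, and 3 fell with K7M2 tumours. Summed base means were 4288 to 9172 for the endothelial and 4070 to 10573 for the stellate list, with none at 0. They were 32.7 to 22601 for the neutrophil list, with none at 0, and 1654 to 6638 for the erythroid list, in which Hba-a1 was at 0 in the 3 RefSeq-keyed tables and Epb42 in the B16F10-TE-EVPs and B16F10-CL-EVPs tables. Sums per group were not analysed here. With K7M2-TE-EVPs, where 13 members fell, 0 of 8 hepatocyte, 0 of 7 Kupffer, 0 of 5 endothelial, 0 of 5 stellate and 0 of 2 tested neutrophil markers were called. The part of these cell types in the members' values was not tested in any table, K7M2-TE-EVPs included.

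The neighbouring steps of the same pathways were read from a list of 74 other genes. By the authors' deposited tables, 20 fell and 4 rose of 70 tested with B16F10 tumours, 36 fell and 12 rose of 72 with B16F1, 34 fell and 9 rose with K7M2, 48 fell and 12 rose with 4T1, and 23 fell and 3 rose of 68 with 67NR. With TNF 35 fell and 8 rose of 72. With EVPs 10 fell and 2 rose of 70 for B16F10-TE-EVPs, 15 fell of 67 for K7M2-TE-EVPs, 17 fell and 3 rose of 72 for Exo-S and 25 fell and 6 rose for Exo-L, whereas 1 fell and 3 rose for B16F10-CL-EVPs, 1 fell for K7M2-CL-EVPs, and 2 fell and 3 rose for exomeres. Of all tested genes, 5.25% fell and 6.48% rose with B16F10 tumours, 17.1% and 17.2% with B16F1 and 12.9% and 15.1% with K7M2. The shares were 21% and 22.4% with 4T1, 9.42% and 9.14% with 67NR and 13.2% and 16.4% with TNF. They were 3.37% and 5.23% with B16F10-TE-EVPs, 2.67% and 1.37% with K7M2-TE-EVPs, 2.92% and 6.84% with Exo-S and 4.1% and 8.65% with Exo-L. With B16F10-CL-EVPs they were 1.44% and 2.34%, with K7M2-CL-EVPs 0.854% and 0.626%, and with exomeres 0.67% and 4.26%. The list's rises were near these shares with B16F10 and B16F1 tumours, Exo-L and exomeres. In the other tables they were below the shares, save with B16F10-CL-EVPs, where they were above. The values that follow are those in which a gene was among the largest changes of its pathway, so other tables can hold further calls. Afmid, which acts between Tdo2 and Kmo, fell with B16F10 (-1.35 ± 0.25), K7M2 (-1.07 ± 0.11) and 67NR (-0.46 ± 0.12) tumours, K7M2-TE-EVPs (-0.24 ± 0.11) and Exo-S (-0.51 ± 0.27). Oat, ornithine aminotransferase, fell with B16F10 (-1.15 ± 0.28), B16F1 (-1.51 ± 0.19), K7M2 (-1.01 ± 0.15) and 4T1 (-0.61 ± 0.14) tumours, B16F10-TE-EVPs (-0.31 ± 0.20), K7M2-TE-EVPs (-0.27 ± 0.09) and TNF (-0.39 ± 0.07), and rose with B16F10-CL-EVPs (0.39 ± 0.21).

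Genes of that list with the largest rises follow. Some had low base means, with K7M2 tumours 27.9 for Psat1, 20.2 for Asns and 5.55 for Phgdh. In the authors' deposited tables Psat1, of serine synthesis, was at 0.99 ± 0.31 with B16F10, 2.60 ± 0.30 with B16F1, 2.59 ± 0.36 with K7M2 and 3.25 ± 0.32 with 4T1 tumours, and at 1.58 ± 0.37 with Exo-S and 1.36 ± 0.36 with Exo-L. Asns, asparagine synthetase, was at 1.17 ± 0.32 with B16F10, 2.22 ± 0.56 with B16F1, 2.47 ± 0.42 with K7M2, 3.46 ± 0.35 with 4T1 and 0.68 ± 0.26 with TNF. Aldh18a1, which makes the proline precursor and so works against Prodh, rose with B16F1 (1.55 ± 0.25), K7M2 (1.46 ± 0.25) and 4T1 (1.90 ± 0.28) tumours, B16F10-TE-EVPs (0.40 ± 0.32), exomeres (0.53 ± 0.32), Exo-S (0.93 ± 0.22), Exo-L (adjusted p = 3.6e-08 by the authors' DESeq2 fit) and TNF (0.59 ± 0.11). Phgdh, the first enzyme of serine synthesis, was at 3.61 ± 0.36 with 4T1, 1.33 ± 0.31 with B16F10 and 1.43 ± 0.89 with K7M2 tumours and at 1.41 ± 0.78 with Exo-L.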

How the data were processed

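The 37 members, the other gene lists and the tests were chosen with earlier results of these data known. Total RNA was extracted with TRIzol and column purification and made into stranded poly(A) libraries, per the labels' protocols. Tools named by the submitters' processing notes are TopHat2 2.0.11, Cufflinks 2.1.1, bcl2fastq 2.19 and DESeq2 (no version given), and the build named is mm9; the counting tool and annotation are not given in the sources used here.

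Analysed here were 13 comparison tables that the authors deposited; counts per sample were not analysed here. The columns, per the file headers, are the base mean (a signal: the mean count after the authors' size-factor scaling), the log2 fold change with its standard error on the log2 scale, and the p-value with its Benjamini-Hochberg adjustment; the authors' 3 RefSeq-keyed tables add a test score. Depth per sample is unknown, so precision is known only from the authors' errors. Fold changes in the deposited tables were shrunken, as judged from the values: in the 3 RefSeq-keyed tables the errors have a sharp upper limit, as with a normal prior, and the other 10 follow a Cauchy prior. Base means were equal across groups that share a PBS group.

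Groups were taken from the labels. A member was called at the authors' adjusted p under 0.05, and no new test per gene was made. Each symbol was read in its row of highest base mean. Unshrunken effects were recovered by inverting each table's fitted prior, for the tests of differences between effects. The steps were tested on data simulated with the same priors, which cannot check that the priors are right. For members, the recovered ratio of effect to error departed from that implied by the deposited p-value. The median departure was 5.19% with B16F10-TE-EVPs, 6.94% with B16F10-CL-EVPs and 2.10% with B16F1 tumours. Named genes are all members, with up to 5 called members of largest fold each way per comparison and the members called most often, up to 3 called genes each way per other list and comparison, and up to 5 members of smallest adjusted p per difference; 1 gene that meets these criteria is not reported here. Alternatives were an adjusted p under 0.01, no filter on low base means, a base mean of at least 50, a fold of at least 5/4, other centrings of the medians, and larger errors for the differences. Python 3.11.15, pandas 2.3.3, numpy 2.4.6, scipy 1.17.1 and matplotlib 3.10.9 were used. Promoter windows are from RefSeq on GRCm38.p6 and were matched by symbol.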

Additional observations from a re-analysis of the deposited data

Results flagged for a closer look

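Tests of the difference between effects passed an adjusted p under 0.05 for 21 pairs of a member and a contrast, all from unshrunken log2 effects with their standard errors. Between the melanoma lines the effect with B16F10 tumours minus that with B16F1 tumours was -1.07 ± 0.27 for Gpt2, 1.39 ± 0.37 for Agxt, 1.41 ± 0.39 for Hal, 1.17 ± 0.34 for Amdhd1, 1.11 ± 0.30 for Cbs, -0.90 ± 0.29 for Ahcy and -0.98 ± 0.30 for Dmgdh. Between the mammary lines the effect with 4T1 tumours minus that with 67NR tumours was -0.35 ± 0.13 for Gstz1, -0.49 ± 0.14 for Kmo, 1.11 ± 0.22 for Sdsl, -0.99 ± 0.36 for Gpt2, -0.73 ± 0.21 for Agxt, -0.77 ± 0.22 for Amdhd1, 0.36 ± 0.15 for Mat1a, -0.98 ± 0.25 for Bhmt, -1.04 ± 0.17 for Dmgdh, -0.54 ± 0.20 for Sardh and -0.63 ± 0.16 for Gcdh. Between EVP sources the effect with B16F10-TE-EVPs minus that with B16F10-CL-EVPs was -0.87 ± 0.26 for Gpt2, -0.78 ± 0.22 for Prodh and -0.52 ± 0.16 for Ahcy.

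Agxt, Amdhd1, Gpt2 and Dmgdh passed in both pairs of tumour lines at an adjusted p under 0.05. At 0.01 Amdhd1 (0.0156) and Dmgdh (0.0236) did not pass in the melanoma pair nor Gpt2 (0.0243) in the mammary pair, and with the recovered errors multiplied by 5/4 none of the 7 melanoma differences passed. At 0.05, for Gpt2 and Dmgdh the effect was lower with the more metastatic line of each pair, and for Agxt and Amdhd1 it was higher with B16F10 and lower with 4T1. Each contrast also compares separate sets of mice, which cannot be told apart from the tumour line or EVP source. All 7 melanoma differences set a RefSeq-keyed against an Ensembl-keyed table. Near-identical copies of Ahcy are known in the mouse genome.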

How the results depend on the processing

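No result reversed under any of the alternatives run. Over the 481 member values, an adjusted p under 0.01 lost 47 calls, an adjustment with no filter on low base means lost 20, a fold of at least 5/4 lost 45, and a base mean of at least 50 gained 7. At 0.01 the members called were 8 with B16F10 tumours, 0 with B16F10-TE-EVPs, 0 with B16F10-CL-EVPs, 3 with K7M2-TE-EVPs, 7 with Exo-S and 4 with Exo-L, and the members whose effect differed were 4 between B16F10 and B16F1, 7 between 4T1 and 67NR and 0 between TE-EVPs and CL-EVPs of B16F10. With no filter 2 were called with B16F10-TE-EVPs and 6 with K7M2-TE-EVPs. With a fold of at least 5/4 there were 0, 0, 1 and 3 calls with B16F10-TE-EVPs, B16F10-CL-EVPs, K7M2-TE-EVPs and Exo-L. With recovered errors multiplied by 5/4 the differing members were 0, 7 and 0 in the same order of pairs. The median member with 4T1 tumours was -0.35 after subtraction of the median of genes with a base mean of at least 500, itself at -0.16. The counts with B16F1, K7M2, 4T1 and 67NR tumours and with TNF stayed within 1.5 times of their values under all of these.

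The EVP counts moved most often under these alternatives, and the cause was not tested. No paired analysis was possible because no values per sample were analysed here, so replicate numbers entered no fit. For the same reason no sample was left out or checked as an outlier. Depth per sample is unknown.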

Other observations

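Amino acid transporters and regulators of amino acid catabolism moved in both directions, by the authors' deposited tables. Slc16a10, an exporter of aromatic amino acids, was at -1.25 ± 0.20 with B16F10, -1.63 ± 0.21 with B16F1 and -1.50 ± 0.14 with 4T1 tumours and at -0.66 ± 0.08 with TNF. Slc3a1, a partner subunit of cystine and dibasic amino acid transport, was at 1.77 ± 0.21 with B16F10, 2.31 ± 0.18 with K7M2 and 2.69 ± 0.24 with 4T1 tumours, and Slc1a4, which carries alanine, serine and cysteine, at 1.88 ± 0.27 with B16F10 and 3.08 ± 0.28 with B16F1. Slc7a8, an exchanger of neutral amino acids, was higher with B16F1 (0.71 ± 0.19), K7M2 (1.09 ± 0.20) and 67NR (0.53 ± 0.18) tumours, B16F10-TE-EVPs (0.54 ± 0.31), Exo-S (0.63 ± 0.16), Exo-L (0.78 ± 0.15) and TNF (1.01 ± 0.22). Of 18 transporters 11 fell and 4 rose with 4T1 tumours, where 21% of all tested genes fell and 22.4% rose. With TNF 11 fell and 4 rose, where 13.2% of all tested genes fell and 16.4% rose. The transporters' rises were near the share of all genes with 4T1 tumours.

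Of 14 regulators 11 fell and 1 rose with TNF, where 13.2% of all tested genes fell and 16.4% rose. With 4T1 tumours 7 fell, where 21% of all genes fell, and with B16F1 tumours 6, where 17.1% fell. With Exo-L 5 fell, where 4.1% of all genes fell. With K7M2 and with 67NR tumours 3 fell, where 12.9% and 9.42% of all genes fell. With B16F10 tumours 2 fell and 1 rose, where 5.25% and 6.48% of all genes did. Klf15, a factor that induces amino acid breakdown, was at -0.80 ± 0.18 with B16F10, -0.89 ± 0.14 with 4T1, -0.44 ± 0.15 with 67NR and -1.57 ± 0.16 with TNF in the deposited tables. Cebpa, a factor of hepatocyte identity and of gluconeogenic genes, was at -0.79 ± 0.13 with B16F1, -1.16 ± 0.23 with 4T1, -1.11 ± 0.09 with TNF and -0.52 ± 0.17 with K7M2-CL-EVPs, where 0 members were called. Gcgr, the glucagon receptor, was at -0.33 ± 0.13 with K7M2, -0.31 ± 0.06 with 67NR and -0.25 ± 0.08 with Exo-L. Of 11 pericentral genes 9 fell with B16F1 and 9 with 4T1 tumours, and of 11 periportal genes, 3 of them members, 5 and 4 fell. Of all tested genes 17.1% and 21% fell with these tumours. Not all other tables shared this order. With TNF 7 pericentral and 8 periportal genes fell, with Exo-S 1 and 4, and with 67NR tumours 2 and 3. With B16F10 tumours 4 of 10 tested and 4 of 11 fell, with Exo-L and K7M2-TE-EVPs 2 and 2, and with K7M2 tumours 7 and 5. In these tables, in the same order, 13.2%, 2.92%, 9.42%, 5.25%, 4.1%, 2.67% and 12.9% of all tested genes fell.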
